A study of Mus musculus with 10 samples.

Results

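The complement components and regulators described here are 9 genes: C1qa, C1qb, C1qc, C1s1, C3, C4b, Cfi, Cfb and Serping1. They were chosen by name from the 26360 genes listed in the deposited table, and all 9 were found. RNA had been sequenced from the right eye and from the left eye of 5 mice, as 1 library per eye (5 right-eye and 5 left-eye libraries). All mice were C57BL/6J, wild type, and at postnatal day 34. The tissue label reads RPE/choroid/sclera (the pigment epithelium under the retina, the vascular coat and the fibrous outer wall), although the extraction protocol there names retinae. In each mouse 1 eye had worn a -20 D lens, which induces myopia, for 10 days from postnatal day 24, and the fellow eye had worn none. Every animal had been anaesthetised with ketamine and xylazine when the goggle was fitted. The labels give the side of each eye but not the side of the lens, so a right minus left difference carries no treatment direction.

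Complement is a set of plasma and tissue proteins that mark cells, debris and microbes for removal. The classical route starts when C1q, a hexamer built from chains A, B and C, binds its target and activates the proteases C1r and C1s, which cleave C4 and C2. The alternative route uses factor B with C3. Both routes meet at C3, whose fragments coat surfaces. C1 inhibitor, the product of Serping1, blocks C1r and C1s, and factor I, the product of Cfi, cuts C3b and C4b together with cofactors. Liver makes most of the plasma proteins, whereas C1q comes mainly from macrophages and microglia, and in the back of the eye complement is best known from human macular degeneration.

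The start regions of genes that act at the entry of the classical route and at its centre are shown, because C1qb and C1qc lie side by side and C3 is the hub of the cascade. C1qa, C1qb and C1qc lie together on chromosome 4, minus strand (GRCm38), at 136895917 to 136898803, 136880129 to 136886187 and 136889804 to 136893065. C3 lies on chromosome 17 (57203970 to 57228136, minus strand). Of the 9 genes, 4 had an entry in the RefSeq promoter table (GRCm38.p6): C1qb, C1qc, C1s1 and C3. The bases just before the outermost annotated start are printed 5′ to 3′ on the minus strand for chr4:136886201-136886450 (C1qb), chr4:136893066-136893164 (C1qc) and chr17:57228137-57228386 (C3), with motif matches in capitals:
C1qb: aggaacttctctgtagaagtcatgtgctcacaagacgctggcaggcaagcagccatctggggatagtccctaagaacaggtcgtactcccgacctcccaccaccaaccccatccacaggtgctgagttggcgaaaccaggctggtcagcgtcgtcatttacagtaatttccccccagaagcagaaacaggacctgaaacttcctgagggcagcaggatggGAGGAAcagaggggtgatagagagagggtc
C1qc: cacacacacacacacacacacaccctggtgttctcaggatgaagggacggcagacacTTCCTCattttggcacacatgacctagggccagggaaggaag
C3: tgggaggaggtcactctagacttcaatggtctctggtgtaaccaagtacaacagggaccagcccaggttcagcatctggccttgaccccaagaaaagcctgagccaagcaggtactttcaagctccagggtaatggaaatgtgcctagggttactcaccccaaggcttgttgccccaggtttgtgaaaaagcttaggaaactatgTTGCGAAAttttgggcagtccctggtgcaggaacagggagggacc

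The motifs searched on both strands over the 250 bases before each RefSeq start were TTGCNNAA (C/EBP), GAGGAA (PU.1 and other ETS factors), TTCNNNGAA (STAT), GAAANNGAA (interferon regulatory factors), GGGNNTTCC (NF-kappaB), TGANTCA (AP-1) and TATAAA (bound by TBP). No match overlapped another. The capitals in C1qb and in C1qc are GAGGAA, in C1qc on the other strand, beginning 30 and 193 bases before the RefSeq starts. The capitals in C3 are TTGCNNAA, beginning 45 bases before its start, and C1s1 held the same motif 242 bases before its first start. Of 32851 promoter windows of this length, 23.3% held GAGGAA and 9.56% held TTGCNNAA. The other motifs, TTCNNNGAA (7.02% of windows), GAAANNGAA (7.13%), GGGNNTTCC (4.98%), TGANTCA (6.75%) and TATAAA (12.4%), were not in these windows of the 4 genes. A match describes letters only and is no evidence of binding.

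Values are counts scaled to the total of their library (CPM). The spacing of low values gave an implied depth of 66.9 to 94.2 M reads per library, of which the listed genes took 42.7% to 47.1%, so that 3 reads corresponded to 0.0318 to 0.0448 CPM. Markers of the labelled tissue were abundant as sums. The sum of 14 pigment epithelium markers was 5594 to 7391 CPM in right and 5352 to 6007 CPM in left eyes. Means over the 10 libraries were highest for Rgr (1964 CPM) and Ttr (1571 CPM) and lowest for Best1 (0.501 CPM) and Bmp4 (25.4 CPM). The 12 fibroblast markers summed to 6852 to 9572 CPM in right and 6558 to 9538 CPM in left eyes. They were led by the collagen genes Col1a2 (2715 CPM) and Col1a1 (2111 CPM), and the lowest were Clec3b (1.16 CPM) and Dpt (6.10 CPM). Retina was also present. The summed level of 11 rod markers was 2153 CPM in the right eye of animal 68 and 1030 CPM in the left eye of animal 65, against 170.1 to 679 CPM in the other 8 libraries, and Gnat1, the rod transducin gene, had a mean of 78.8 CPM. Surface epithelium markers (11 genes, led by Aldh3a1 and Krt15) summed to 147 to 736 CPM in right and 317 to 949.6 CPM in left eyes, and skeletal muscle markers (12 genes, led by Ttn and Myh4) to 3660 to 7573 and 2029 to 9372 CPM. Of 24 macrophage and microglia markers, all were listed, and their sum was 363 to 437 CPM in right and 376 to 442 CPM in left eyes. Granulocyte markers (11 of 12 listed, led by the mast cell genes Tpsb2 and Cma1) summed to 2.55 to 5.30 and 2.54 to 7.80 CPM, and lymphocyte markers (10 genes, led by Cd4 and Ms4a1) to 1.79 to 3.30 and 1.99 to 3.41 CPM. Cd4 had a mean of 1.64 CPM, while the other lymphocyte markers had means from 0.0456 CPM (Ncr1) to 0.202 CPM (Ms4a1). The T cell genes Cd3e (0.0620 CPM) and Cd3g (0.0524 CPM) were among these low markers. Astrocyte and Müller glia markers (9 genes, led by Glul and Clu) summed to 2194 to 2623 and 2144 to 2459 CPM, erythrocyte markers (7 of 8, led by Hbb-bs and Hba-a1) to 643 to 1253 and 576 to 1098 CPM. In the glial list Gfap (mean 10.6 CPM), Aqp4 (12.5 CPM), Aldh1l1 (14.8 CPM) and Slc1a3 (17.0 CPM) were low. Glul (824 CPM), Clu (619.5 CPM), Rlbp1 (418 CPM), Dkk3 (367 CPM) and S100b (77.5 CPM) were higher, and Rlbp1 is also in the pigment epithelium list. The liver protein Alb was at 0 to 0.0799 CPM and Fga at 0 to 0.203 CPM over the 10 libraries, although Trf (1803 to 2490 CPM) and Ttr (1275 to 2003 CPM) of the same list were high.

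The members covered a wide range of levels. Per kilobase of exon, Serping1 was the highest at 40.1 CPM per kb (mean of 10 libraries, range 32.9 to 47.4). C1qa (20.1, range 18.7 to 23.3), C1s1 (17.9, range 15.8 to 19.6) and C1qb (16.7, range 14.6 to 19.3 CPM per kb) followed, and their ranges overlapped. C4b (11.6, range 7.68 to 13.5) and C1qc (9.32, range 8.03 to 12.1 CPM per kb) also overlapped each other. Cfb, of the alternative route, was lower at 2.54 (range 1.81 to 3.21), as was C3, where both routes meet, at 1.25 CPM per kb (range 1.02 to 1.47). Cfi was lowest at 0.0620 CPM per kb (range 0.0269 to 0.106). Serping1 stood above C1qa, C1qb above C4b, C1qc above Cfb, Cfb above C3 and C3 above Cfi with no overlap between their ranges. The place of C1qc depends on the gene model, since dividing by its longest transcript gave 15.0 CPM per kb, against 12.3 for C4b and 16.7 for C1qb on the same basis.

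**Figure D1:**
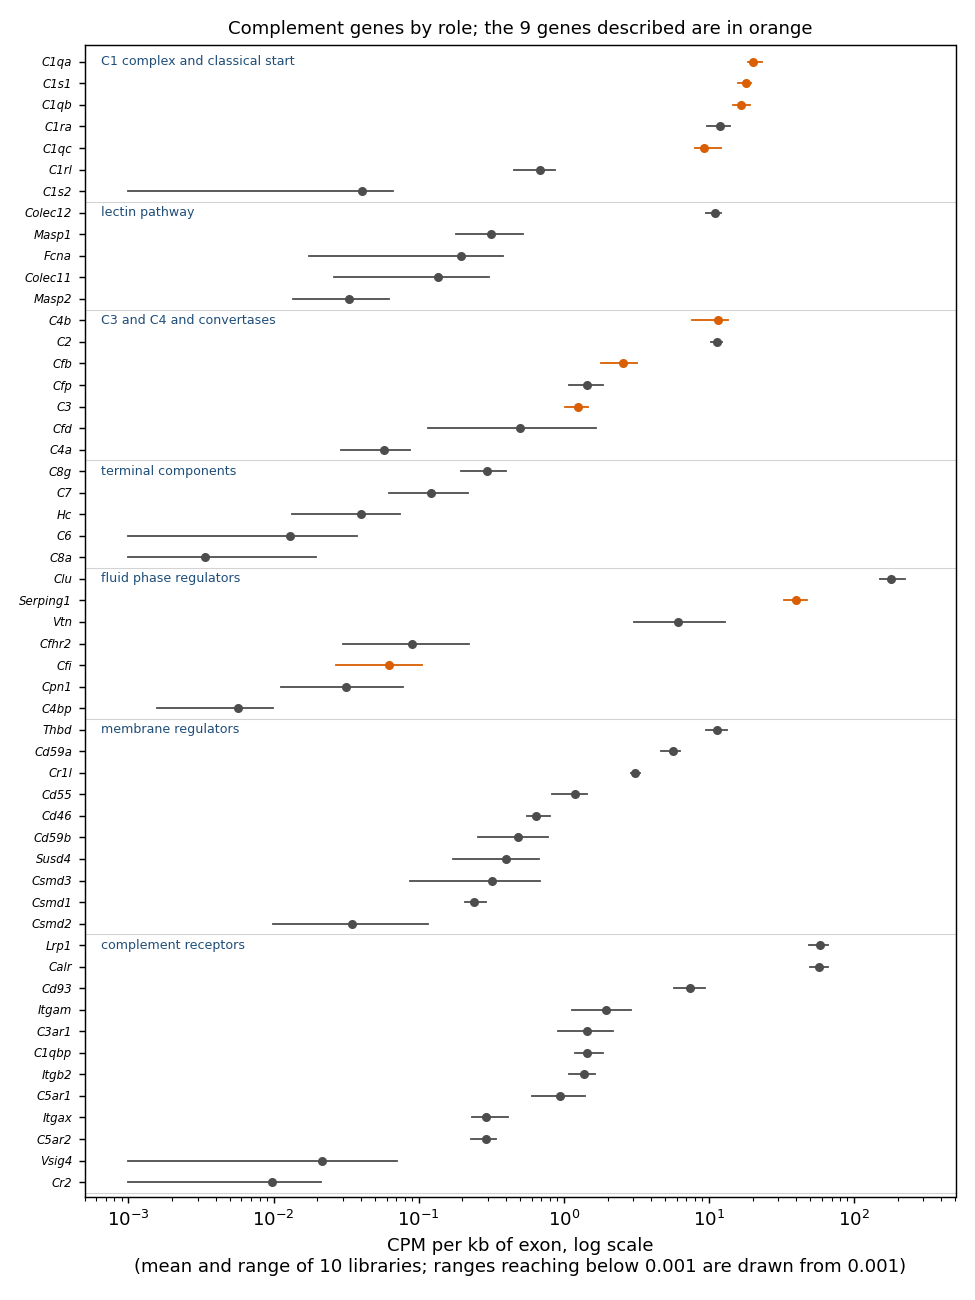
Level of listed complement genes on a log axis in CPM per kilobase of exon, grouped by role, with the mean (point) and the range over 10 libraries (line). Serping1, at 40.1 CPM per kb, is among the highest, and Cfi, at 0.0620 CPM per kb, is among the low genes with the terminal components.

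The first comparison set the right eye of each mouse against its fellow left eye. In limma, with a term for each mouse, each of the 8 members tested had an adjusted p of 0.9998, above the threshold of 0.05. The p-values set each mean difference against the spread of fellow-eye differences over these 5 animals. Limma moderates that spread towards the trend over all genes tested. Over all 15414 genes tested, 0% were called. None of the 8 reached an unadjusted p of 0.05 either, while 2.79% of all genes did (430 genes). The members' log2 differences ran from -0.12 (Cfb) to 0.08 (C1qb), with 3 higher and 5 lower in right eyes and a median of -0.03, against -0.01 over all genes tested. The widest 95% interval was that of C4b, from -0.38 to 0.18 on the log2 scale, or 0.769-fold to 1.13-fold. Cfi was under the filter of a mean of 1 CPM and was not tested. The difference was also taken without the 2 rod-rich libraries (right eye of animal 68, left eye of animal 65), a choice made after the data were seen. With a term for each mouse, this takes animals 65 and 68 out of the difference, which then rests on animals 61, 64 and 66. It was -0.23 for C4b, -0.18 for Cfb, -0.10 for Serping1, -0.066 for C3, -0.037 for C1s1 and 0.0041 for C1qb. C1qa (-0.014) and C1qc (-0.016) changed sign, as they did when only animal 65 was left out. The signs of some marker lists ran one way. All 13 pigment epithelium markers tested were above 0 in right minus left (median 0.17), as were all 12 endothelial markers, led by Vwf and Kdr (sums of 464 to 654 CPM in right and 504 to 569 CPM in left eyes). All 11 surface epithelium markers were below 0 (median -0.99). No gene of these 3 lists passed the test or had an unadjusted p under 0.05, and the part of these tissues in the members' values was not tested.

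**Figure D2:**
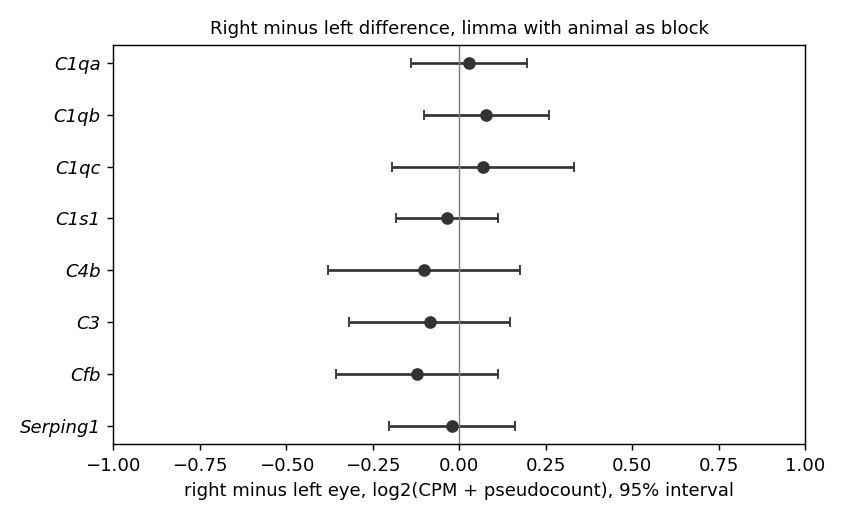
Right minus left difference of 8 complement genes on the log2(CPM + 0.230) scale, with the 95% interval from limma (5 animals, 2 eyes each). Every interval includes 0, and C4b has the widest, from -0.38 to 0.18.

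C1qa encodes the A chain of C1q. It was at 20.5, 21.6, 24.2, 19.4 and 19.9 CPM in the right eyes of animals 61, 64, 65, 66 and 68, against 20.5, 21.2, 19.5, 20.4 and 21.8 CPM in their left eyes. The groups overlapped, and the right eye of animal 65 was the highest. The means were 21.1 ± 1.89 CPM in right and 20.7 ± 0.872 CPM in left eyes (SD, n = 5 each), a log2 difference of 0.03 ± 0.07 (SE).

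C1qb encodes the B chain. It was at 18.3, 19.3, 21.0, 17.3 and 17.4 CPM in right eyes, in the same order of animals, against 17.2, 20.2, 15.9, 17.4 and 17.6 CPM in left eyes. Animal 65 held both extremes, with the highest value in its right and the lowest in its left eye. The log2 difference was 0.08 ± 0.08 (SE).

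C1qc encodes the C chain and varied more than the other chains. It was at 16.4, 17.4, 23.4, 19.8 and 15.5 CPM in right eyes, against 16.7, 19.8, 15.8, 17.7 and 17.5 CPM in left eyes. Animal 65 again had the widest gap, with the right eye 1.48-fold above the left. The log2 difference was 0.07 ± 0.11 (SE). Without animal 65 the difference was -0.043 for C1qa, -0.0012 for C1qb and -0.055 for C1qc, so that the direction for the 3 chains rested on that animal.

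The 3 chains are needed in equal number in the protein, and the ratios of their transcripts were compared between libraries. The ratio of C1qb to C1qa in CPM was 0.869 to 0.893 in right and 0.808 to 0.949 in left eyes. That of C1qc to C1qa was 0.779 to 1.02 and 0.802 to 0.931. The coefficient of variation over the 10 libraries was 4.75% for the first ratio, below that of C1qa (6.75%) and C1qb (8.51%) themselves. It was 9.62% for the second, between those of C1qa and C1qc (13.2%). The sum of the chains was 52.8 to 68.6 CPM in right and 51.2 to 61.2 CPM in left eyes. It equalled 12.6% to 15.9% of the macrophage marker sum in right and 12.3% to 14.4% in left eyes. In these bulk libraries fewer cells of a type and less RNA per cell cannot be told apart. Csf1r, the receptor on which macrophages depend, was at 72.1 to 87.2 CPM in right and 68.02 to 80.2 CPM in left eyes, and Stab1, a scavenger receptor, had a mean of 67.2 CPM over the 10 libraries.

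C1s1 encodes the protease that cleaves C4 and C2 (chromosome 6, 124530345 to 124542359, minus strand). It was at 61.3, 54.2, 55.2, 56.2 and 50.3 CPM in right eyes, against 59.6, 59.9, 49.5, 56.4 and 58.7 CPM in left eyes. The lowest values were those of the left eye of animal 65 and the right eye of animal 68. Those eyes had the most rod transcripts and the lowest macrophage marker sums, 376 and 363 CPM, and the part of either in the result was not tested. The means were 55.4 ± 3.98 CPM in right and 56.8 ± 4.31 CPM in left eyes (SD, n = 5 each), a log2 difference of -0.04 ± 0.06 (SE), and 0.011 without animal 68. C1s1 shares 6.87% of its 100-base transcript windows with the paralog C1s2. C1s2 was at 0 to 0.288% of C1s1 in each library. An antisense gene overlaps 576 bases of the C1s1 exons, and reads of the pair cannot be told apart if counting ignored strand. The ratio of C1s1 to C1ra, which encodes the partner protease, was 1.47 to 1.73 in right and 1.47 to 1.70 in left eyes. C1ra in turn shares 34.5% of its windows with C1rb, which is not among the genes listed in the deposited table.

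Serping1 encodes C1 inhibitor, which also controls the kallikrein system (chromosome 2, 84765387 to 84775444, minus strand). It was at 110.1, 86.7, 97.1, 92.1 and 76.4 CPM in right eyes, against 106.5, 106.0, 80.6, 96.7 and 80.2 CPM in left eyes. Animal 61 was high in each eye and animal 68 low in each eye, and the eye groups overlapped. The means were 92.5 ± 12.5 CPM in right and 94.0 ± 13.02 CPM in left eyes (SD, n = 5 each), a log2 difference of -0.02 ± 0.08 (SE), and 0.044 without animal 64. The ratio of Serping1 to C1s1 in CPM was 1.52 to 1.80 in right and 1.37 to 1.79 in left eyes.

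C4b encodes complement C4, the precursor of the surface-bound C4b fragment (chromosome 17, 34728380 to 34743882, minus strand). It was at 71.6, 76.6, 72.8, 43.8 and 56.4 CPM in right eyes, against 76.8, 72.0, 62.6, 69.4 and 58.4 CPM in left eyes. The right eye of animal 66 was the lowest of the 10 libraries, and its fellow eye was 1.59-fold higher, the widest gap between fellow eyes for any member tested. That eye had 191 CPM of rod markers and 422 CPM of macrophage markers, each within the range of the other libraries. It was the highest of the 10 libraries in the sums of fibroblast (9572 CPM), pigment epithelium (7391 CPM), endothelial (654 CPM) and erythrocyte markers (1253 CPM), and their part in the result was not tested. The log2 difference was -0.10 ± 0.12 (SE), and 0.039 without animal 66. C4b shares 15.2% of its 100-base windows with its paralog C4a, whose listed level was 0.236% to 0.806% of that of C4b in right eyes and 0.272% to 0.795% in left eyes. Reads from shared windows may have been assigned to either gene.

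C3 encodes the central component. It was at 7.28, 5.57, 6.61, 6.53 and 5.25 CPM in right eyes, against 7.11, 7.57, 7.22, 5.66 and 5.67 CPM in left eyes. These values correspond to 379 to 605 implied reads per library, so counting error was small beside the spread between libraries. The groups overlapped, and animal 64 had the widest gap, with its left eye 1.36-fold above its right. The log2 difference was -0.09 ± 0.10 (SE), and without animal 64 it was 0.00017. The ratio of C4b to C3 in CPM was 6.70 to 13.8 in right and 8.66 to 12.3 in left eyes.

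Cfb encodes factor B, the protease part of the alternative C3 convertase (chromosome 17, 34856374 to 34862518, minus strand). It was at 8.36, 5.83, 6.04, 6.88 and 6.99 CPM in right eyes, against 9.05, 7.61, 5.12, 7.12 and 8.70 CPM in left eyes. The right eye was lower in 4 of 5 animals, animal 65 being the exception. The means were 6.82 ± 1.00 CPM in right and 7.52 ± 1.55 CPM in left eyes (SD, n = 5 each). The log2 difference of -0.12 ± 0.10 (SE) kept its sign in each of the 27 alternatives tried. Changing the filter, the moderation or the block could not alter it, and dropping 1 eye repeats dropping its animal. Without animal 65 the difference was -0.21, with the smallest limma unadjusted p of the alternatives (0.0491, adjusted p = 0.988). Cfb shares 2246 of its 2825 exon bases with the same-strand gene Gm20547, listed at 0.0939 to 1.26 CPM in right and 0.0232 to 0.531 CPM in left eyes, so its own level is uncertain to that extent.

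Cfi encodes factor I (chromosome 3, 129835884 to 129875332, plus strand). It was at 0.0666, 0.234, 0.108, 0.0914 and 0.233 CPM in right eyes, against 0.135, 0.208, 0.167, 0.0598 and 0.0743 CPM in left eyes. These values rest on 5, 17, 9, 8 and 22 implied reads in right and 10, 15, 14, 4 and 7 in left eyes, each above the limit of 3 reads. The order of fellow eyes was mixed, with the right eye higher in 3 of 5 animals. A difference between eyes was not detected at this depth, and a fit with no filter on low values gave a log2 difference of 0.06 ± 0.15 (SE; limma adjusted p = 0.99992). The 0.230 CPM added before taking logs is close to or above each Cfi value, so that fit understates differences and their spread.

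**Figure D3:**
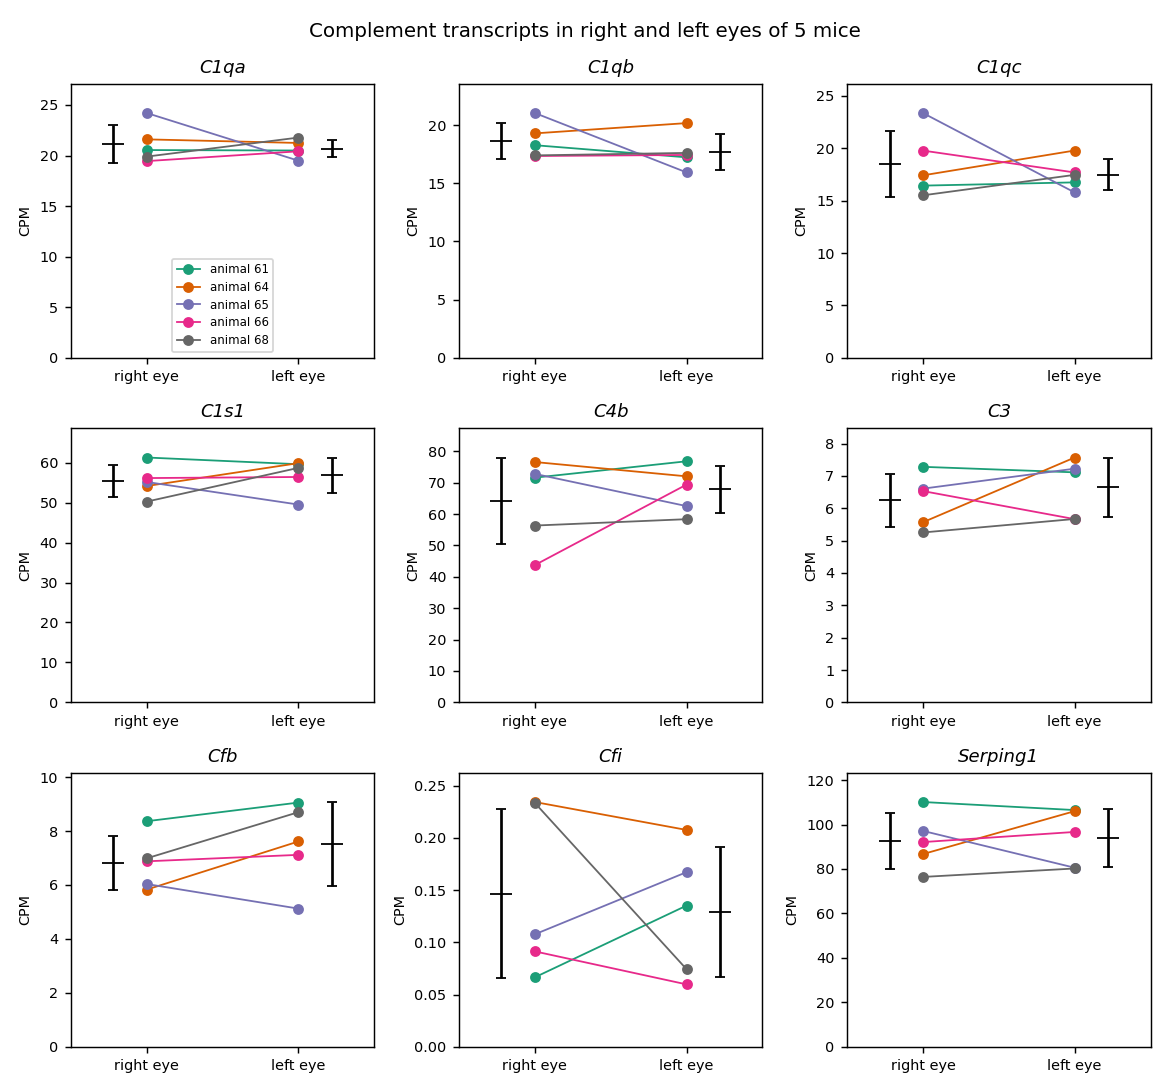
CPM of the 9 complement genes in the right and left eye of each animal (points joined by animal) with the mean and SD of each eye group (black bars, n = 5 each), on axes that start at 0. The eye groups overlap in every panel, C4b of the right eye of animal 66 is low at 43.8 CPM, and the C1q chains of the right eye of animal 65 are high.

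The second comparison asked whether animals differed more than fellow eyes did, by an F test of the animal terms in the same limma fit. Fellow eyes share an animal and are not independent animals, and 1 of them wore a lens. The eye-side term takes up a lens effect only if the lens was on the same side in every mouse. That side is not labelled, so the error in this test may include a lens effect. None of the 8 members tested passed, and the smallest adjusted p of a member in any alternative was 0.389 (C4b). Over all genes 13 were called (0.0843%), of which 7 lie on the X or Y chromosome and none is in the complement lists. The labels give no sex, and its part in the members' values was not tested. At an unadjusted p under 0.05, 1 of the 8 members was counted, against 7.22% of all genes tested. That member was Cfb (F = 4.50, adjusted p = 0.652). Its animal means were 8.71 CPM in animal 61, 7.84 in 68, 6.997 in 66, 6.72 in 64 and 5.58 in 65.

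Serping1 came next (F = 3.88, adjusted p = 0.689), with animal means from 78.3 CPM in animal 68 to 108 CPM in animal 61. The SD of its animal means, each of 2 eyes, was 0.17 on the log2 scale, against 0.13 for a single eye within an animal. A mean of 2 eyes varies less than a single eye, so the SDs are not on the same footing, and F makes the comparison. For C4b the SDs were 0.20 and 0.23 (F = 2.34), with means of 56.6 and 57.4 CPM in animals 66 and 68 and 67.7 to 74.3 CPM in the other 3. The C1q chains had the least difference between animals, with F of 0.38 (C1qa), 0.74 (C1qb) and 0.68 (C1qc) against a median of 1.14 over all genes tested. Their fellow-eye SD of 0.11, 0.13 and 0.20 exceeded the SD of animal means of 0.05, 0.07 and 0.10.

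**Figure D4:**
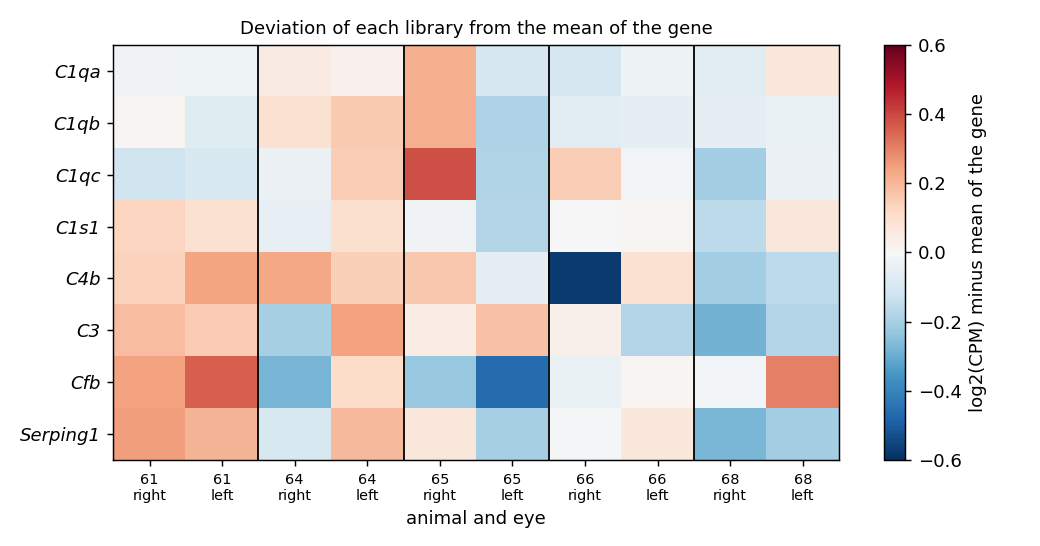
Deviation of each library from the mean of the gene over 10 libraries, in log2(CPM), for 8 complement genes, with columns ordered by animal and eye. Animal 61 is above the mean for C1s1, C4b, C3, Cfb and Serping1 in each eye, and C4b of the right eye of animal 66 is the lowest cell, at -0.57.

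The other genes of the cascade were taken from lists written for these roles, 57 genes outside the 9, of which 45 were listed and 27 had a mean of at least 1 CPM. None of the 27 passed in either comparison. At an unadjusted p under 0.05 there were 0 between right and left eyes and 3 between animals (11.1%, against 7.22% of all genes tested), namely Masp1, Colec12 and C3ar1. Right minus left differences were above 0 for 10 and below 0 for 17, with a median of -0.05, against -0.01 over all genes. In the list of C3, C4 and convertase genes, the differences of the 5 tested genes ran from -0.12 to -0.05, and 3 of the 5 are members (C3, C4b and Cfb). C2, the classical protease partner of C4b, was at 43.5 ± 2.48 CPM in right and 44.9 ± 2.10 CPM in left eyes (SD, n = 5 each). C1ra was at 35.0 ± 4.74 and 36.2 ± 4.59 CPM, and the 6 tested genes of the C1 list had 4 differences above 0 and 2 below.

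Among fluid-phase regulators Clu, which encodes the terminal pathway inhibitor clusterin, was at 642 ± 89.2 CPM in right and 597 ± 52.9 CPM in left eyes (SD, n = 5 each). Per kilobase of exon Clu stood at 180.2 CPM per kb, above Serping1. Among membrane regulators the difference was below 0 for 7 of 8 tested genes, with a median of -0.07, and none passed. Thbd (thrombomodulin) was at 41.0 ± 5.10 and 43.0 ± 5.00 CPM, Cr1l, a rodent C3 regulator, at 31.4 ± 1.80 and 33.0 ± 1.96 CPM, and Cd59a, which blocks the membrane pore, at 10.2 ± 1.16 and 10.3 ± 0.740 CPM.

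The pore-forming end of the cascade was low. Of 7 terminal components, 5 were listed and none reached a mean of 1 CPM, and C8g (0.428 ± 0.0712 CPM in right and 0.451 ± 0.150 CPM in left eyes), C7 (0.275 ± 0.117 and 0.378 ± 0.166 CPM) and Hc, which encodes C5 (0.255 ± 0.141 and 0.243 ± 0.117 CPM; SD, n = 5 each), were the most abundant. In the lectin route Colec12, a scavenger collectin, was at 94.8 ± 10.1 and 95.9 ± 7.51 CPM, Masp1, a C1s-like protease, at 2.75 ± 1.04 and 3.41 ± 1.35 CPM, and Fcna at 0.214 ± 0.145 and 0.324 ± 0.166 CPM. The right eye had less Masp1 than the left in 5 of 5 animals (log2 difference -0.27 ± 0.15, SE; limma adjusted p = 0.9998). Between animals the limma adjusted p was 0.510 for Masp1 (F = 8.08) and 0.602 for Colec12 (F = 5.55). In the list written for receptors Lrp1 (1038 ± 128 and 1025 ± 117 CPM), Calr (167 ± 10.5 and 162 ± 17.4 CPM) and Cd93 (52.5 ± 7.40 and 47.1 ± 4.95 CPM) led. The rest of that list was lower, with means over all libraries from 0.0318 CPM (Vsig4) to 9.79 CPM (Itgam). Of its 10 tested genes, 6 differences were above 0 and 4 below.

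C3ar1, the receptor for the C3a fragment, was named after its values were seen, as the complement gene with the smallest p between animals. It was at 9.35, 6.09, 6.69, 5.66 and 4.06 CPM in the right eyes of animals 61, 64, 65, 66 and 68, against 9.25, 6.24, 6.36, 5.02 and 3.93 CPM in their left eyes. Fellow eyes lay close together while animals differed over 2-fold, from 4.00 CPM in animal 68 to 9.30 CPM in animal 61. It missed the threshold (F = 30.6, limma adjusted p = 0.0969), and its adjusted p was under 0.05 in 2 alternatives (array weights and no eye side term) and ran from 0.0295 to 0.948 over all of them. Of the 23 macrophage and microglia markers tested, 7 had an unadjusted p under 0.05 between animals (30.4%, against 7.22% of all genes tested) and none passed, and their part in the result was not tested.

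Genes that accompany complement in inflammation were listed as well. Of 20 interferon-induced genes tested, 7 differences were above 0 and 13 below, with a median of -0.01, and none passed. Between animals 13 of the 20 had an unadjusted p under 0.05 (65%, against 7.22% of all genes tested) and none passed after adjustment. Of 10 acute phase and NF-kappaB targets tested, 4 differences were above 0 and 6 below (median -0.03), and none passed. Between animals 3 of these 10 had a limma unadjusted p under 0.05 (30.0%) and none passed. Genes of a list were measured in the same 5 animals and can vary together, so they are not independent. The shares given here and above for lists are descriptions, and no set test was run.

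The genes whose log2 values most resembled each member over the 10 libraries were named by Pearson r. For the C1q chains they were Sharpin (0.95), Cfl1 (0.92) and Snu13 (0.92) for C1qa, Ndufb4c (0.98), Lgi4 (0.93) and Rps24-ps3 (0.91) for C1qb, and Crtap (0.95), Lamtor1 (0.94) and Kxd1 (0.93) for C1qc. For C1s1 they were Rhbdf1 (0.97) and Pip4p2 (0.95), and for Serping1 Coro1c (0.97), Sord (0.96) and Slc7a1 (0.96). C4b was nearest to Msmo1 (0.95), Calm2 (0.94) and Lss (0.94), C3 to Tmem8b (0.95), Tnfrsf23 (0.91) and Bahcc1 (0.91), and Cfb to Cyb561 (0.94) and Klf10 (0.93). The libraries share 5 animals, and 13130 candidate genes were searched. Over all 15414 genes tested the best match had a median r of 0.94, so the members' values lie within the usual range.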

How the data were processed

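Libraries had been made from 1 μg of total RNA after ribosomal RNA depletion with a stranded kit, per the labels. The authors deposited normalized counts whose values behave as CPM plus 1e-04, and this offset was removed. STAR, Partek and GRCm38 (mm10) are named in the submitters' processing notes. Versions, annotation and use of strand were not stated in the material used. Of low values (0.5 to 20 steps), 88.9% to 89.8% were whole within 0.05, so implied reads are approximate and no count test was run. CPM is relative to the library total. Gene coordinates and exon lengths are those of GENCODE M21, in which 99.4% of the 25737 genes matched by name had the deposited start. Ends are the deposited stop minus 1.

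Tests used log2(CPM + 0.230), which understates changes of low genes, for the 15414 genes whose mean reached 1 CPM. Limma 3.58.1 (R 4.3.3) was fitted with an intensity trend and terms for animal and eye side, with Benjamini-Hochberg adjustment over all genes. The animal terms were tested by F in the same fit, which was tested on simulated data. Intervals are 95%. Alternatives covered scaling, pseudocount, filter, moderation, weights, model terms and left-out libraries.

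The number in each title was taken as the animal, and fellow eyes were paired on it. Their deviations correlated by -0.19 to 0.27, and only for animal 61 was the left eye most like the right eye its fellow. The pairing therefore rests on the titles. No pair of libraries agreed within sampling noise. The members and lists were chosen with earlier results of these data known. Named were the 9 members, list genes past either threshold (none), the 3 most abundant genes of each complement list, the 2 most abundant markers of each cell type, and the 3 nearest genes of each member tested. A few genes that this rule names are not reported here. Liver markers at or near 0 and C3ar1 were named after their values were seen. Shared windows are identical 100-base stretches of GENCODE transcripts.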

Additional observations from a re-analysis of the deposited data

Results flagged for a closer look

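Within 5 libraries of an eye side, 2 of 70 group values of complement genes tested had 1 library far from the others, and chance gives about 1 in 20. Both were the left eye of animal 65, and neither gene is a member. Vtn, which encodes the terminal pathway inhibitor vitronectin, was at 20.06 CPM there, against 8.83 to 11.2 CPM in the other 4 left eyes, and the right eye of animal 68 had 26.0 CPM. These are the libraries with the most rod transcripts (1030 and 2153 CPM). Cd93 was at 38.26 CPM in the left eye of animal 65, against 48.7 to 49.9 CPM in the other 4 left eyes.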

How the results depend on the processing

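The count of genes called between right and left eyes was 0 in the main fit and in each of the 27 alternatives, with no replicate block included (434 genes at an unadjusted p under 0.05, against 430 with the block), and no member was called in any. The block therefore changed no call. The count of genes that differed between animals was 13, and became 20 with array weights, 25 with no eye side term, 5 without the right eye of animal 68 and the left eye of animal 65 (an alternative added after the data were seen) and 5 to 10 when an animal or a library was dropped. No member was among them, and the cause was not tested. Fewer libraries entered where some were left out. In the blocked fit, leaving out 1 eye removes the animal from the right minus left difference. Over these repeats the differences ran from -0.043 to 0.067 for C1qa, -0.0012 to 0.11 for C1qb, -0.055 to 0.13 for C1qc, -0.084 to 0.011 for C1s1, -0.16 to 0.00017 for C3, -0.18 to 0.039 for C4b, -0.21 to -0.060 for Cfb and -0.095 to 0.044 for Serping1. Without both rod-rich libraries C1qa was at -0.014 and C1qc at -0.016. No sign changed with another scaling, pseudocount or weighting. Another filter or moderation leaves the difference as it is and could not change a sign. By Spearman, 8 of the 24 nearest genes were again among the nearest 3. Depth limits Cfi and the terminal components. For the other members the precision of the right minus left difference rests on how fellow-eye differences varied over the 5 animals, and on the limma moderation towards all genes tested.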
